A study of Mus with 8 samples.

Results

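Vitamin A circulates from the liver as retinol bound to a carrier protein, and inside cells it is oxidized to retinal and then to retinoic acid, which switches genes on through nuclear receptors. The 9 genes described here, of 54532 in the table, cover that route and were taken by name: the carrier Rbp4, the retinol dehydrogenases Rdh7, Rdh16 and Rdh10, the retinal reductases Dhrs3 and Dhrs4, the aldehyde oxidase Aox3, the retinoic acid hydroxylase Cyp26a1 and the receptor Rara. They were chosen with earlier results of these data known. Liver is the main source of circulating carrier and, in its stellate cells, the main store of vitamin A as retinyl ester. RNA was sequenced from mouse liver in 8 libraries, 4 from mice given dextran sulfate sodium (DSS), a high-fat diet and alcohol (the diet-alcohol group, libraries 35, 45, 65 and 71) and 4 from mice given DSS (libraries 15, 48, 49 and 50). All mice thus shared DSS, a polysaccharide that injures the colon lining, at 2.5% until day 6, and the diet and alcohol followed it. Diet and alcohol were given together and cannot be told apart. The label of the DSS group names no feed, and the design text speaks of a purified high-fat feed for an arm without alcohol, so what these mice ate after DSS is unclear here. Mouse strain and age are not stated, nor whether each library came from 1 mouse, so p-values speak only to differences among these libraries.

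Each library held between 12502300 and 16967839 counts. Mitochondrially encoded transcripts took 30.2 to 73.0% of counts in the diet-alcohol libraries and 55.8 to 79.1% in the DSS libraries (exact two-sided permutation p = 0.143, n = 4 each), which left 3453086 to 10947612 counts for nuclear genes in the diet-alcohol group and 2722757 to 6170482 in the DSS group. Library 35 stood apart, with 784 genes at 1 to 9 counts where the other 7 libraries had 4319 to 4987. The tissue label held: Alb, which encodes albumin, averaged 18457 CPM (counts scaled to library size) in the diet-alcohol group and 42304 CPM in the DSS group. Of 11729 genes tested, 148 changed, or 1.26% (edgeR quasi-likelihood test, Benjamini-Hochberg adjusted p under 0.05).

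In the diet-alcohol livers Rdh16, Aox3, Rbp4, Rdh7 and Dhrs3 had mean levels 1.53 to 2.74 times below those of the DSS livers, while Dhrs4, Rara and Rdh10 had log2 fold changes within 0.1 of 0. None of these 8 genes passed the edgeR test over all genes. A minimum count left 8 members in the test, and edgeR called 0 of them, where 1.26% of all genes were called (0.588% higher and 0.674% lower in diet-alcohol livers). DESeq2, fitted without that minimum to 20694 genes, called 3 members (Rbp4, Rdh16 and Aox3), all lower in the diet-alcohol group. It called 2.13% of those 20694 genes, and 1.17% as lower, with genes lacking an adjusted p counted as not called. The same 3 have an adjusted p under 0.05 in the authors' deposited table, as do 2.08% of the same 20694 genes. With limma-voom 0 members and 1.02% of tested genes were called. At an unadjusted p under 0.05 stood 5 of the 8, against 11.7% of all tested genes. Negative fold changes were found for 6 of the 8 and for 50.5% of all tested genes. The median log2 fold change of the 8 tested members was -0.71 (all tested genes: -0.01). Because the members were chosen with earlier results known, these shares and medians describe the list and are no test of it. Cyp26a1 was too scarce to pass the filter and is described by its counts.

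**Figure D1:**
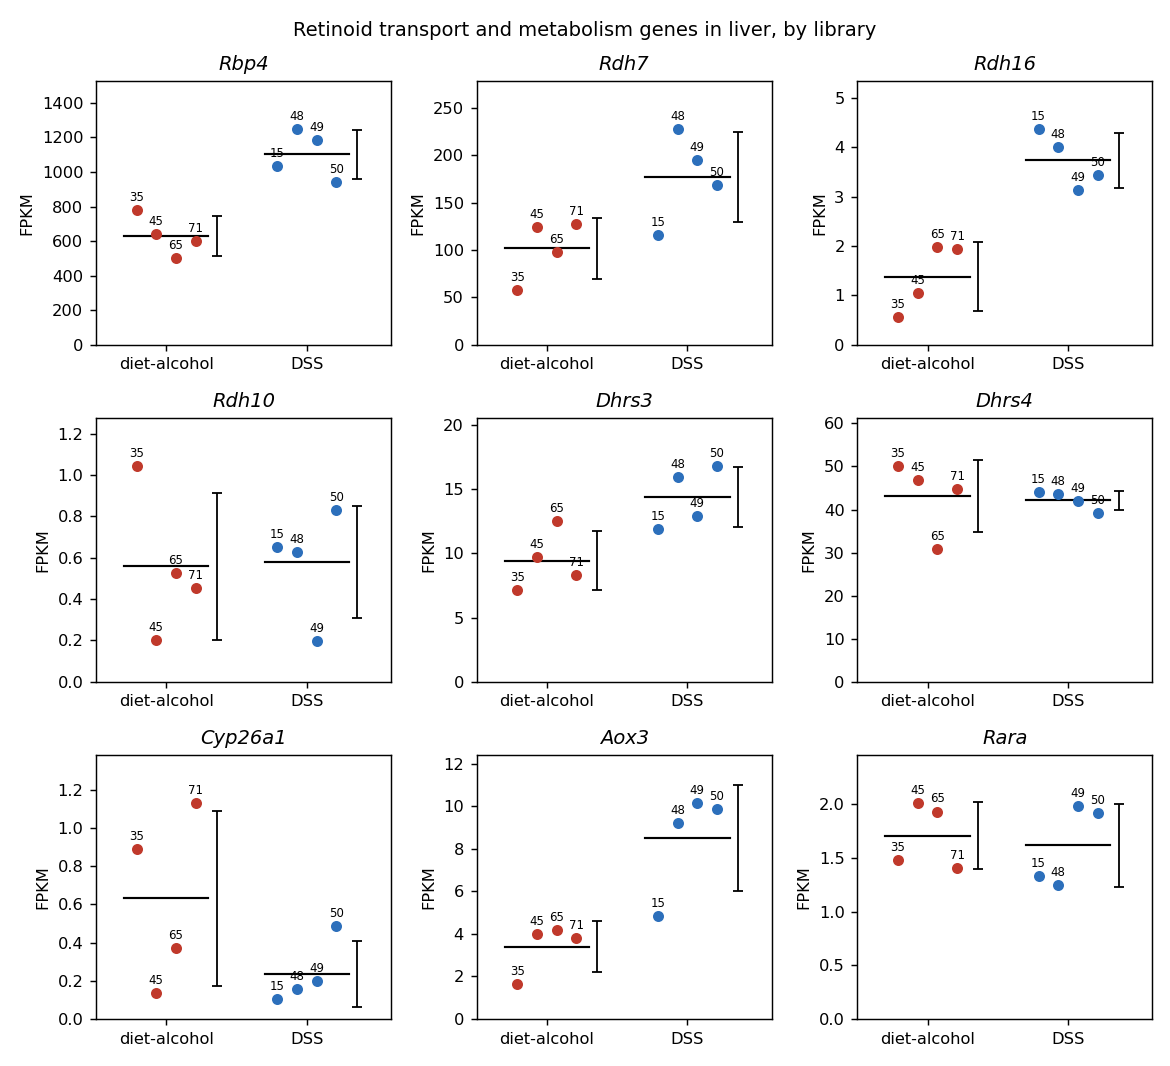
FPKM (the authors' deposited values, scaled to library size and gene length) of each retinoid gene in the 4 diet-alcohol and 4 DSS libraries. Points are libraries with their numbers, horizontal bars are means and error bars are 1 SD. Rbp4, Rdh16 and Aox3 have no diet-alcohol library as high as the lowest DSS library, and the other 6 genes overlap.

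Per length of transcript, the members spanned more than 3 orders of size. Rbp4 stood first, at 630.7 ± 116.6 FPKM in the diet-alcohol group and 1103 ± 141 FPKM in the DSS group (SD, n = 4 each). Rdh7 came next, at 102 ± 32.6 FPKM in the diet-alcohol group and 177 ± 47.6 FPKM in the DSS group. Dhrs4 followed, at 43.2 ± 8.46 FPKM in the diet-alcohol group and 42.2 ± 2.25 FPKM in the DSS group. After it came Dhrs3, at 9.43 ± 2.33 FPKM in the diet-alcohol group and 14.4 ± 2.35 FPKM in the DSS group. The order of these 4 genes was the same in both groups, with no overlap between neighbours. In the DSS group Aox3 (8.53 ± 2.50 FPKM), Rdh16 (3.74 ± 0.559) and Rara (1.62 ± 0.386) followed, each apart from the next. In the diet-alcohol group Aox3 (3.40 ± 1.19 FPKM), Rara (1.71 ± 0.310) and Rdh16 (1.38 ± 0.696) overlapped with their neighbours, and Rara lay above Rdh16. Rdh10 and Cyp26a1 were last in both groups, under 1.2 FPKM in every library, and overlapped with each other.

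Rbp4 encodes retinol binding protein 4, which carries retinol from hepatocytes into blood. The gene (ENSMUSG00000024990) lies on the minus strand of chromosome 19 (38116620 to 38125321, GRCm38). It had 1044, 849, 655 and 797 CPM in diet-alcohol libraries 35, 45, 65 and 71, against 1355, 1656, 1574 and 1259 CPM in DSS libraries 15, 48, 49 and 50. The groups did not overlap, and library 35 was the highest of its group. A gap between the groups of this kind, with the diet-alcohol group lower, was found in 3 of the 8 tested members and in 4.63% of all tested genes. The opposite gap was found in 0 members and in 4.14% of genes, and a gap in either direction in 8.77% of genes. These shares too describe a list chosen with earlier results known. On the log2 scale Rbp4 differed by -0.80 ± 0.23 (SE), or 1.75-fold lower, with a 95% interval of -1.32 to -0.29 (edgeR adjusted p = 0.154), and by -0.93 without library 35 (0.068). DESeq2 called it (adjusted p = 0.020), and the 15 other settings did not (edgeR adjusted p up to 0.441, without DSS library 48). The authors' deposited table lists an adjusted p of 0.020 at a log2 fold change of -0.81. These values nearly equal those of the DESeq2 fit and are no separate support. In bulk liver, fewer hepatocytes and less RNA per hepatocyte cannot be told apart.

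In plasma the carrier travels bound to transthyretin, the product of Ttr. Ttr had 364, 736, 616 and 1969 CPM in diet-alcohol libraries 35, 45, 65 and 71, against 1259, 1933, 2064 and 1781 CPM in DSS libraries 15, 48, 49 and 50. Library 71 lay within the DSS range and the other 3 diet-alcohol libraries below it. For Ttr the log2 difference was -0.93 ± 0.45 (edgeR adjusted p = 0.466). Without library 71 the value was -1.62 and the gene was called (edgeR adjusted p = 0.045). Dividing the counts of Rbp4 by those of Ttr removes the scaling between libraries: the ratio was 2.87, 1.15, 1.06 and 0.405 in libraries 35, 45, 65 and 71, against 1.08, 0.857, 0.763 and 0.706 in DSS libraries 15, 48, 49 and 50. The groups overlapped, and libraries 35 and 71 lay at opposite ends of the diet-alcohol range.

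Rdh7 and Rdh16 belong to a family of short-chain dehydrogenases that oxidize retinol and, in rodents, hydroxysteroids. Rdh7 (ENSMUSG00000040134, chromosome 10, 127884028 to 127888817, minus strand) had 99.1, 213, 165 and 221 CPM in diet-alcohol libraries 35, 45, 65 and 71. In DSS libraries 15, 48, 49 and 50 it had 196, 391, 335 and 293 CPM. DSS library 15 was below diet-alcohol libraries 45 and 71, so the groups overlapped. Rdh7 differed by -0.80 ± 0.30 on the log2 scale, with a 95% interval of -1.46 to -0.14 (edgeR adjusted p = 0.294), and by -0.61 without library 35.

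Rdh16 had the smallest p of the 8 tested members. The gene (ENSMUSG00000069456) spans 127801152 to 127846565 on the plus strand of chromosome 10, 37.5 kb from Rdh7. It had 3.58, 6.58, 12.4 and 12.4 CPM in diet-alcohol libraries 35, 45, 65 and 71, against 27.5, 25.5, 20.0 and 22.0 CPM in DSS libraries 15, 48, 49 and 50. The groups did not overlap, and the diet-alcohol libraries fell into a lower pair (35 and 45) and a higher pair (65 and 71). Its log2 fold change was -1.45 ± 0.36, or 2.74-fold lower, with a 95% interval of -2.24 to -0.66 (edgeR adjusted p = 0.091). It was called by DESeq2 (adjusted p = 0.010), by edgeR without the filter on low counts (0.012) and by edgeR without library 35 (log2 fold change -1.20, adjusted p = 0.018). The 13 other settings did not call it, with edgeR adjusted p up to 0.304 (mitochondrial share in the model). In the authors' deposited table its adjusted p is 0.010. The pseudogene Rdh18-ps lies inside the span of Rdh16 and had 1 count in all 8 libraries together.

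A paralog between Rdh16 and Rdh7 on the same chromosome, Rdh16f2, had a fold change of the opposite sign. Rdh16f2 had 24.7, 56.1, 46.5 and 48.5 CPM in diet-alcohol libraries 35, 45, 65 and 71, against 21.01, 25.0, 22.3 and 18.5 CPM in DSS libraries 15, 48, 49 and 50. Its log2 fold change was 1.02 ± 0.26 (edgeR adjusted p = 0.10), and it was called without library 35 (1.21, adjusted p = 0.0031) and by DESeq2 (0.029). The 12 other settings did not call it. Within each library, counts of Rdh16 over those of Rdh16f2 stood at 0.145, 0.117, 0.266 and 0.255 in diet-alcohol libraries 35, 45, 65 and 71. The same ratio was 1.31, 1.02, 0.898 and 1.19 in DSS libraries 15, 48, 49 and 50. The ratio was thus lower in every diet-alcohol library, by 5.93-fold between geometric means (log2 difference -2.57). The pair was chosen after its values were seen, because the signs of its genes were opposite, so the gap is a description with no test. Genes of this family are similar in sequence, and no source used here states how reads shared between them were counted. In the same gene cluster Rdh9 had 2.25 ± 1.37 CPM in the diet-alcohol group and 1.04 ± 0.751 CPM in the DSS group (SD, n = 4 each; log2 fold change 1.11, edgeR adjusted p = 0.627; 0.25 once mitochondrial share was in the model).

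**Figure D2:**
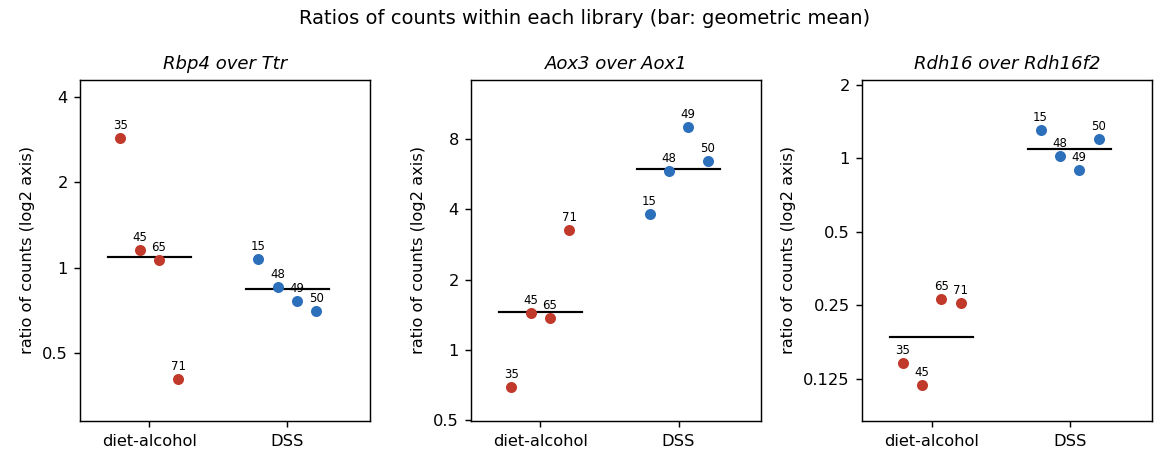
Ratio of the counts of 2 genes within each library, on a log2 axis, for Rbp4 over Ttr, Aox3 over Aox1 and Rdh16 over Rdh16f2, in diet-alcohol and DSS livers. Points are libraries with their numbers and bars are geometric means. Rbp4 over Ttr overlaps between the groups. Aox3 over Aox1 does not (0.696 to 3.26 in diet-alcohol and 3.82 to 8.99 in DSS livers), nor does Rdh16 over Rdh16f2 (0.117 to 0.266 in diet-alcohol and 0.898 to 1.31 in DSS livers).

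Rdh10 oxidizes retinol to retinal and is the enzyme of this step that mouse embryos need. It was scarce, with 80, 21, 20 and 49 counts in diet-alcohol libraries 35, 45, 65 and 71, and 44, 38, 7 and 24 counts in DSS libraries 15, 48, 49 and 50. The groups overlapped throughout. Its log2 fold change was -0.05 with a 95% interval of -1.34 to 1.23 (edgeR adjusted p = 0.984), so the interval includes a 2-fold change either way. The highest library exceeded the lowest by 5.18-fold within the diet-alcohol group and by 4.26-fold within the DSS group.

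Dhrs3 turns retinal back into retinol, works together with Rdh10 and is itself induced by retinoic acid. Dhrs3 (ENSMUSG00000066026, chromosome 4, 144892827 to 144928209) had 21.5, 29.0, 37.0 and 25.1 CPM in diet-alcohol libraries 35, 45, 65 and 71, against 35.2, 47.6, 38.7 and 50.8 CPM in DSS libraries 15, 48, 49 and 50. Only library 65 reached into the DSS range. For Dhrs3 the log2 difference was -0.61 ± 0.23 (95% interval -1.11 to -0.11, edgeR adjusted p = 0.287), and -0.39 once the mitochondrial share was in the model. Dhrs4, a peroxisomal reductase of retinal and other carbonyls, had 90.7, 83.7, 54.7 and 80.7 CPM in diet-alcohol libraries 35, 45, 65 and 71, against 78.0, 78.0, 75.2 and 70.8 CPM in DSS libraries 15, 48, 49 and 50. The DSS libraries lay within a narrow band, and diet-alcohol libraries fell on both sides of it. Its log2 fold change was 0.04 with a 95% interval of -0.41 to 0.49 (edgeR adjusted p = 0.971), the narrowest interval of the 8 tested members.

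Aox3 encodes a molybdenum-containing aldehyde oxidase of mouse liver, whose family can oxidize retinal to retinoic acid and also many drugs. The gene (ENSMUSG00000064294) spans 58113130 to 58200698 on the plus strand of chromosome 1. Aox3 had 11.8, 28.6, 29.6 and 27.4 CPM in diet-alcohol libraries 35, 45, 65 and 71, against 34.3, 66.1, 73.2 and 71.8 CPM in DSS libraries 15, 48, 49 and 50. The groups did not overlap, and each had 1 library well below its other 3, library 35 and DSS library 15. On the log2 scale the difference was -1.33 ± 0.33, or 2.52-fold lower, with a 95% interval of -2.06 to -0.60 (edgeR adjusted p = 0.092). Leaving out either of those libraries brought it past the threshold: without library 35 it was -1.10 (edgeR adjusted p = 0.034) and without DSS library 15 it was -1.53 (0.046). It was also called by DESeq2 (0.0095) and by edgeR without the filter (0.013), and its adjusted p in the authors' deposited table is 0.0098. With mitochondrial share in the model it stood at -1.13 (edgeR adjusted p = 0.426).

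The neighbouring gene Aox1, another aldehyde oxidase, had a log2 fold change of the opposite sign. Aox1 had 17.0, 20.0, 21.6 and 8.41 CPM in diet-alcohol libraries 35, 45, 65 and 71, against 8.98, 11.4, 8.15 and 11.2 CPM in DSS libraries 15, 48, 49 and 50 (log2 fold change 0.75 ± 0.30, edgeR adjusted p = 0.333). Library 71 lay with the DSS libraries. Counts of Aox3 over those of Aox1 stood at 0.696, 1.44, 1.37 and 3.26 in diet-alcohol libraries 35, 45, 65 and 71, and at 3.82, 5.82, 8.99 and 6.43 in DSS libraries 15, 48, 49 and 50. In all 8 libraries but library 35 Aox3 had the more counts of the pair. The ratio was 4.12-fold lower in the diet-alcohol group between geometric means, a description of another pair chosen after its values were seen. Aox2 and Aox4 had no count in any library.

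Cyp26a1 hydroxylates retinoic acid for removal, and its transcription responds to retinoic acid. It lies 415 kb from Rbp4 on chromosome 19. It had 29, 6, 6 and 52 counts in diet-alcohol libraries 35, 45, 65 and 71, against 3, 4, 3 and 6 counts in DSS libraries 15, 48, 49 and 50. Libraries 35 and 71 stood above all others (1.62 and 2.06 CPM), while libraries 45 and 65 (0.247 and 0.663 CPM) lay within the DSS range of 0.187 to 0.894 CPM. Without the filter on low counts the log2 fold change of Cyp26a1 was 1.48 ± 1.03 (edgeR adjusted p = 0.628), and the authors' deposited table lists 1.51 at an adjusted p of 0.579.

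Rara, the alpha receptor for retinoic acid, had 6.66, 8.97, 8.50 and 6.31 CPM in diet-alcohol libraries 35, 45, 65 and 71, against 5.86, 5.54, 8.87 and 8.64 CPM in DSS libraries 15, 48, 49 and 50. The groups covered nearly the same range. Rara differed by 0.08 on the log2 scale, with a 95% interval of -0.51 to 0.67 (edgeR adjusted p = 0.947).

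Rdh7, Dhrs3 and Aox3 had the same lowest library in each group. Library 35 was the lowest diet-alcohol library for 4 of the 9 genes (Rdh7, Rdh16, Dhrs3 and Aox3) and the highest for Rbp4, Rdh10 and Dhrs4. DSS library 15 was the lowest DSS library for 4 genes (Rdh7, Dhrs3, Cyp26a1 and Aox3) and the highest for Rdh16 and Dhrs4. Within the DSS group the highest library exceeded the lowest by 1.10-fold for Dhrs4 and by 4.78-fold for Cyp26a1. Within the diet-alcohol group this spread ran from 1.42-fold for Rara to 8.36-fold for Cyp26a1. For every tested member except Rara the spread was wider in the diet-alcohol group. Library 35 was the lowest or highest diet-alcohol library for each of those members, so the wider spread rests in part on that library.

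A further 64 genes of retinoid handling were listed by role, of which 45 could be tested. This list too was drawn up with earlier results known. In edgeR 1 of the 45 rose and 0 fell, where 0.588% of all tested genes were called higher and 0.674% lower, and the median log2 fold change of the 45 was -0.15. At an unadjusted p under 0.05 stood 9 of the 45, beside 11.7% of all tested genes: Cyp2c39, Rdh16f2, Aox1 and Aldh1a7 with positive values, and Ces1d, Ces1g, Scarb1, Rarres2 and Retsat with negative ones. Retsat, which saturates retinol, was named after its values were seen (log2 fold change -1.28 ± 0.36, edgeR adjusted p = 0.139). The gene that rose was Cyp2c39, a mouse cytochrome P450 reported to hydroxylate retinoic acid. Cyp2c39 had 10.3, 6.46, 3.76 and 4.25 CPM in diet-alcohol libraries 35, 45, 65 and 71, against 1.31, 0.491, 0.240 and 0.596 CPM in DSS libraries 15, 48, 49 and 50. Every diet-alcohol library was above every DSS library. Cyp2c39 was 8.91-fold higher, a log2 difference of 3.16 ± 0.55 (edgeR adjusted p = 0.016), and 3.78 without DSS library 15. It did not pass with limma-voom (adjusted p = 0.225), with mitochondrial share in the model (0.113), or without DSS library 48 (0.092), 49 (0.056) or 50 (0.074), or diet-alcohol library 45 (0.064). Cyp2c genes are close in sequence, so reads may have been shared among them and the count of this 1 gene is uncertain. The other clearance gene tested, Cyp26b1, had 3.36 ± 1.17 CPM in the diet-alcohol group and 3.80 ± 1.70 CPM in the DSS group (log2 fold change -0.16, or 0.09 without DSS library 50).

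None of 4 tested genes of transport and uptake passed. Fabp5, a fatty acid binding protein that can also carry retinoic acid, had a log2 value of -0.76 (edgeR adjusted p = 0.658), and of -0.06 without DSS library 15, which had 44.6 CPM where the other DSS libraries had 7.45 to 19.5. Stra6l, a receptor for circulating carrier in liver, stood at 0.07 (adjusted p = 0.958; -0.16 without library 65), and Stra6, the receptor of other tissues, had no count in any library.

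Of 10 tested genes for retinyl esters and carotenoids none passed, and 8 had negative log2 fold changes. The lowest were the carboxylesterase genes Ces1d and Ces1g, whose products hydrolyse retinyl esters among other lipids. Ces1d had 94.7, 17.7, 7.07 and 28.9 CPM in diet-alcohol libraries 35, 45, 65 and 71, against 147, 414, 331 and 336 CPM in DSS libraries 15, 48, 49 and 50 (log2 fold change -3.04 ± 0.68, edgeR adjusted p = 0.058). Ces1g had 42.5, 14.4, 12.7 and 13.97 CPM in the same diet-alcohol libraries and 52.7 to 85.0 CPM in the DSS libraries (log2 fold change -1.81 ± 0.39, edgeR adjusted p = 0.052). Neither gene overlapped between the groups. Library 35 was the highest diet-alcohol library for both, and without it both were called, at -4.08 and -2.42 (adjusted p = 0.0039 and 3e-05). Both were also called by limma-voom (0.028 each) and DESeq2 (0.0089 for Ces1d and 0.00036 for Ces1g). In all, Ces1d was called under 3 settings and Ces1g under 4. Ces1d was not called under 11 other settings (edgeR adjusted p up to 0.307), nor Ces1g under 10 (up to 0.250). Scarb1, a receptor that takes up lipoprotein lipids and carotenoids, stood at -0.92 ± 0.25 (edgeR adjusted p = 0.122). It was called under 2 settings, 1 of them without DSS library 15 (-1.12, 0.026), and not under 12 others. Lrat, which makes retinyl esters in stellate cells, stood at 0.24 ± 0.47 (edgeR adjusted p = 0.904) and at -0.32 when library 65 was left out.

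Among 11 other tested genes that interconvert retinol and retinal none passed, with 5 positive and 6 negative values and a median of -0.09. The lowest was Akr1b8, an aldo-keto reductase, at -1.07 ± 0.63 (edgeR adjusted p = 0.583). None of 4 tested genes of retinoic acid synthesis passed, and all 4 values were positive in the edgeR fit on all 8 libraries. Aldh1a7, of the retinal dehydrogenase family, stood at 0.76 ± 0.34 (edgeR adjusted p = 0.411), Aldh8a1 at 0.17 and Aldh1a1, the main retinal dehydrogenase of liver, at 0.20 (adjusted p = 0.914). The sign for Aldh1a1 turned without library 35, which had 457 CPM where the other diet-alcohol libraries had 94.6 to 220.5 CPM. It stood at -0.44 there and at -0.09 with limma-voom. Aldh1a1 averaged 221 ± 167 CPM in the diet-alcohol group and 192 ± 26.4 CPM in the DSS group.

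None of 8 tested receptors and cofactors passed. Rxra, the partner receptor most abundant in liver, averaged 179 ± 31.0 CPM in the diet-alcohol group and 169 ± 25.1 CPM in the DSS group (log2 fold change 0.09, edgeR adjusted p = 0.921; -0.05 without library 45). Rxrg, a scarcer partner, stood at -0.72 (adjusted p = 0.507) and the coactivator gene Ncoa1 at -0.35 (0.727). Of 6 tested genes listed as responsive to retinoic acid none passed. Rarres2, which encodes the secreted protein chemerin, had the largest difference: 21.8, 35.97, 25.8 and 44.8 CPM in diet-alcohol libraries 35, 45, 65 and 71, against 45.4, 90.2, 85.8 and 83.3 CPM in DSS libraries 15, 48, 49 and 50 (log2 fold change -1.24 ± 0.29, edgeR adjusted p = 0.076). The groups did not overlap, although library 71 and DSS library 15 nearly met. Rarres2 was called without library 35 (-1.09, edgeR adjusted p = 0.047) or DSS library 15 (-1.43, 0.035), by DESeq2 (0.0058) and without the filter (0.015). The 10 other settings did not call it. Tgm2, which encodes a transglutaminase, stood at 0.41 (edgeR adjusted p = 0.595).

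**Figure D3:**
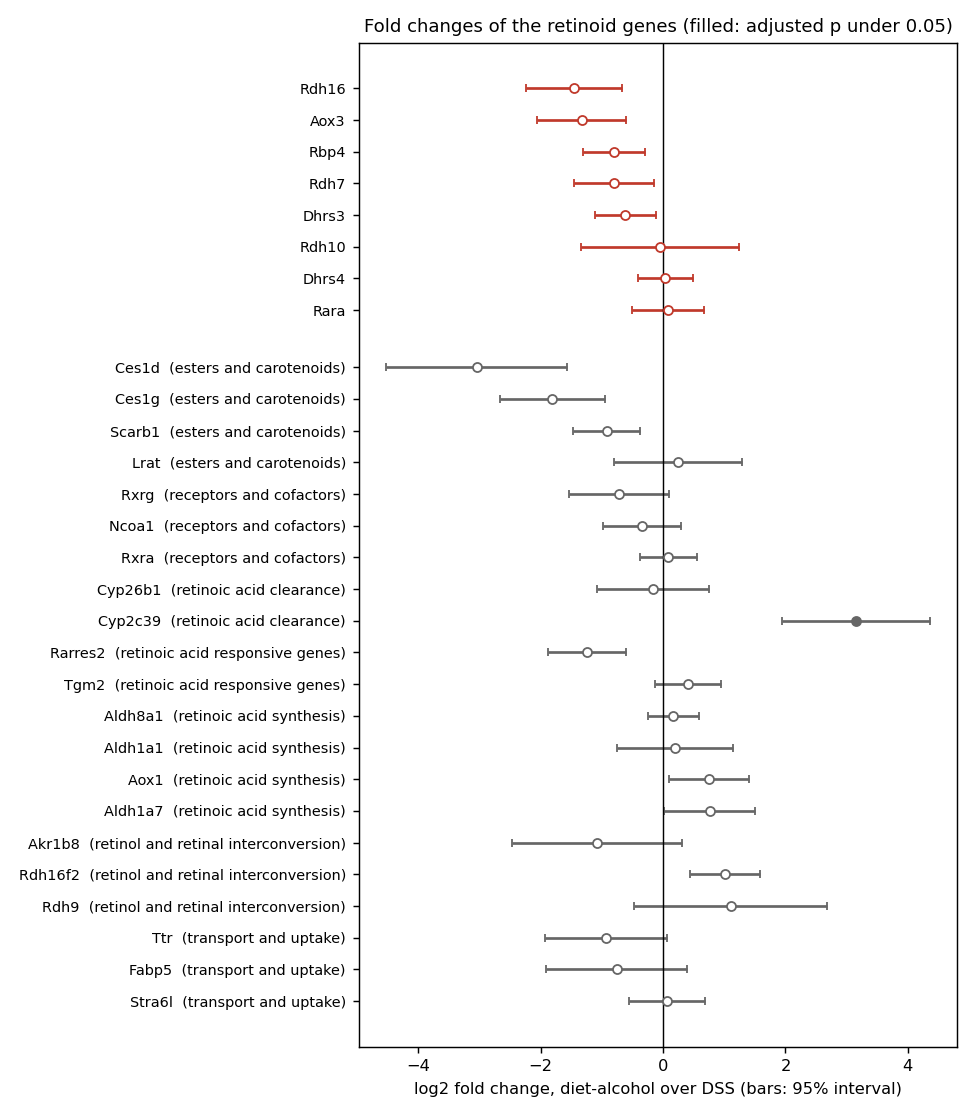
Log2 fold change of diet-alcohol over DSS livers with 95% intervals, for the 8 tested members (upper block) and 21 other retinoid genes with their roles (lower block). Filled points passed an adjusted p of 0.05 in edgeR. Cyp2c39 at 3.16 is the only filled point, and the intervals of Rdh16, Aox3, Rbp4, Rdh7 and Dhrs3 lie below 0.

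The 5 members with the lowest fold changes kept a negative sign under each of the 16 other settings tried. Rbp4 ran from -0.99 to -0.71, Rdh7 from -0.97 to -0.61, Rdh16 from -1.68 to -1.04, Dhrs3 from -0.77 to -0.39 and Aox3 from -1.53 to -1.10 on the log2 scale. Rdh7 and Dhrs3 were called under none of these settings, with adjusted p down to 0.191 for Rdh7 and 0.143 for Dhrs3. The range of Rdh10 (-0.58 to 0.23), Dhrs4 (-0.23 to 0.17) and Rara (-0.03 to 0.34) crossed 0.

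**Figure D4:**
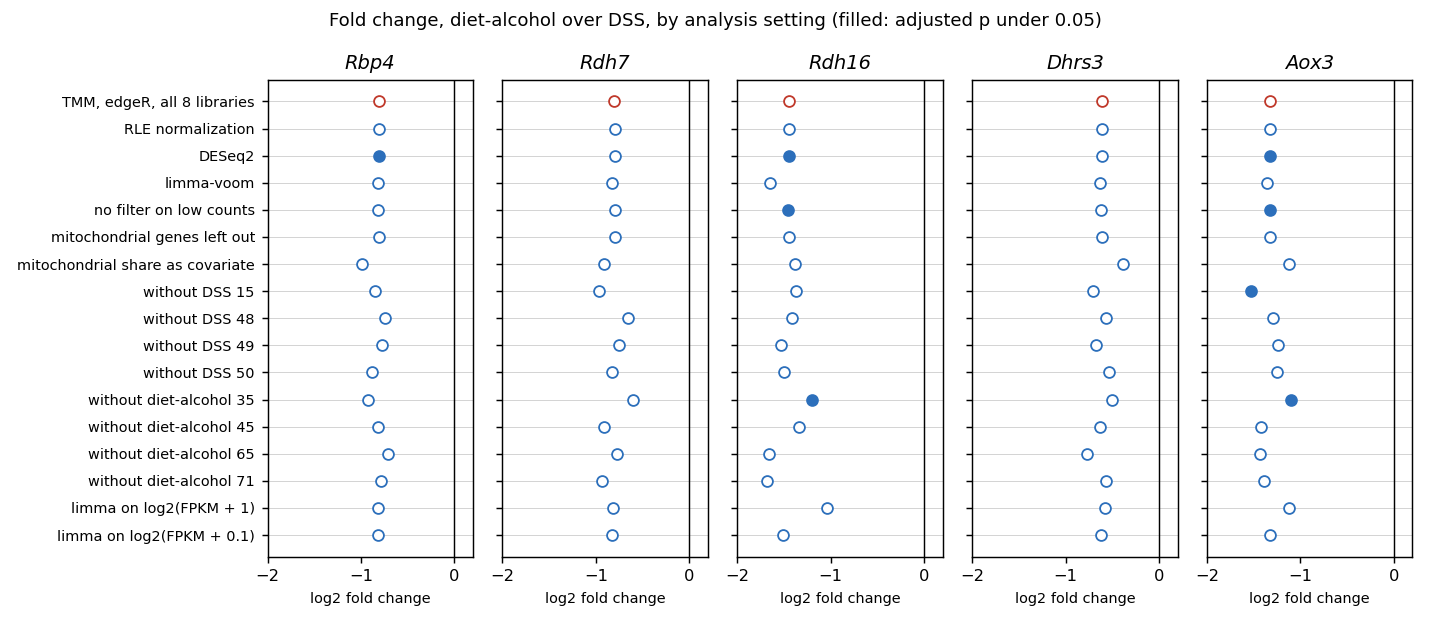
Log2 fold change of diet-alcohol over DSS livers for Rbp4, Rdh7, Rdh16, Dhrs3 and Aox3 under each analysis setting, with the fit on all 8 libraries in red. Filled points had an adjusted p under 0.05. All points lie below 0, and the filled ones are 1 for Rbp4, 3 for Rdh16 and 4 for Aox3.

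All 4 tested neutrophil markers were called higher in the diet-alcohol group. The gaps of 2 other lists closed when 1 gene was left out of each. Summed over 9 Kupffer cell and macrophage markers, the level was 353 to 677 CPM in the diet-alcohol group and 219 to 344 CPM in the DSS group. Only Marco, a scavenger receptor gene, was called among the 9 (156 ± 165 CPM in the diet-alcohol group and 8.99 ± 2.78 CPM in the DSS group; SD, n = 4 each). Without it the 8 other markers overlapped, at 256 to 553 CPM in the diet-alcohol group and 212 to 334 CPM in the DSS group. Summed over 9 neutrophil markers it was 33.5 to 72.7 CPM in the diet-alcohol group and 2.88 to 12.8 CPM in the DSS group, and the 4 markers abundant enough to test were called higher, while 5 of the 9 were not tested. Of those 5, Mpo, Camp, Ngp and Ly6g had higher means in the diet-alcohol group, and Elane had a lower one (0.123 CPM, against 0.212 CPM in the DSS group). None of the 5 had a count in library 35. The 8 hepatocyte markers in the table, most of whose sum is Alb, summed to 29300 to 37880 CPM in the diet-alcohol group and 43724 to 68849 CPM in the DSS group. None of the 8 was called. Without Alb the sums of the 7 others overlapped, at 13984 to 16165 CPM in the diet-alcohol group and 13531 to 18592 CPM in the DSS group. Fgb, a fibrinogen gene within that sum, was higher in every diet-alcohol library than in any DSS library (log2 fold change 1.12, edgeR adjusted p = 0.094). Apart from Alb and Fgb, every hepatocyte marker in the table had a negative log2 fold change, from -0.99 for Apob to -0.14 for Cps1. These sums without 1 gene were added after the data were seen. With all their genes these 3 lists were free of overlap (exact two-sided permutation p = 0.0286, n = 4 each; 0.0667 adjusted over 7 lists). Stellate cell markers, 11 genes with 0 called, summed to 114 to 375 CPM in the diet-alcohol group and 133 to 353 CPM in the DSS group (exact permutation p = 0.714, n = 4 each). The part of these lists in the retinoid values was not tested. Sinusoidal endothelial markers overlapped, at 77.2 to 181 CPM in diet-alcohol and 115 to 204 CPM in DSS livers. So did cholangiocyte markers, at 9.92 to 60.7 CPM in diet-alcohol and 13.0 to 25.2 CPM in DSS livers, and T and B cell markers, at 0 to 3.64 CPM in diet-alcohol and 1.43 to 3.30 CPM in DSS livers. No listed marker was at 0 in all 8 libraries.

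The 5 genes nearest to Rdh16 in pattern were Adgrl2, Map3k13, Klhl25, Blm and Plbd2, leaving out members, predicted genes and pseudogenes. Likeness was the mean absolute difference between centred log2 CPM profiles over the 8 libraries, and it ran from 0.19 for Adgrl2 to 0.26 for Plbd2. None of the 5 was called; Klhl25 came closest (log2 fold change -1.36 ± 0.33, edgeR adjusted p = 0.081).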

How the data were processed

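Liver RNA of 4 diet-alcohol and 4 DSS samples was extracted with an RNeasy kit and made into mRNA libraries, per the labels' protocols. The authors deposited raw counts per gene and library, FPKM values, a log2 fold change, mean normalized signal per group, and a p-value with its adjusted p, per the file headers. Builds are listed as GRCm38 and mm10, per the submitters' processing notes. No source used here states the aligner, the counting tool or the strand setting.

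Counts were filtered with filterByExpr (11729 genes left), TMM-normalized and tested with edgeR 4.0.16 (robust quasi-likelihood F test, R 4.3.3; adjusted p threshold 0.05, Benjamini-Hochberg over all tested genes). SE is the log2 fold change divided by the root of F. For single values an exact permutation test (two-sided, 70 assignments) was used. The test was tried on simulated data. Alternatives were RLE normalization, DESeq2 1.42.0, limma-voom (limma 3.58.1), no filter, mitochondrial genes left out, the mitochondrial share as a covariate, limma on log2(FPKM + 1) and log2(FPKM + 0.1), and leaving out each library. Besides the 5 genes nearest in pattern to the member with the smallest p, other genes named are those past the test, up to 3 more per role with the smallest p, and Rxra, Lrat, Aldh1a1 and Stra6l; a few genes under this rule are not reported here. The 9 members and all lists were chosen with earlier results of these data known.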

Additional observations from a re-analysis of the deposited data

Results flagged for a closer look

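Of 88 groups of 4 libraries examined, 9 held a library whose gap to the nearest other exceeded Dixon's 95% value as a share of the group's range. About 1 in 20 groups of independent, normally distributed values pass it. The 88 groups come from the same 8 libraries and many of their genes were named for a small p, so that rate cannot judge the 9. Library 35 was low for Aox3 (11.8 CPM, others 27.4 to 29.6) and high for Ces1g (42.5 CPM, others 12.7 to 14.4) within the diet-alcohol group. Diet-alcohol library 45 was low for Fabp5 (4.86 CPM, others 13.9 to 15.6) and high for Rxra (226 CPM, others 161 to 167). DSS library 15 was low for Scarb1 (45.3 CPM, others 87.2 to 93.7) and Rarres2 (45.4 CPM, others 83.3 to 90.2), and high for the summed cholangiocyte markers (25.2 CPM, others 13.0 to 14.4). DSS library 49 was high for Aldh8a1 (152 CPM, others 131 to 134). Library 65 was high for the summed T and B cell markers (3.64 CPM, others 0 to 0.329).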

How the results depend on the processing

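Of all genes, 148 were called, against 441 with DESeq2 (which, like the fit without a filter, took in 20694 genes), 249 without a filter, 55 with the mitochondrial share as a covariate, and 58 (without DSS library 48) to 308 (without library 35) when 1 library was left out. Called members numbered 0, against 3 with DESeq2, 2 without a filter and 0 to 2 when 1 library was left out (2 without library 35, 1 without DSS library 15). Called genes among the other retinoid genes numbered 1, against 7 with DESeq2, 2 with limma-voom, 4 without a filter, 0 with the covariate and 0 to 6 when 1 library was left out (0 without DSS library 48, 49 or 50 or library 45, 3 without DSS library 15, 2 without library 71, 6 without library 35). The cause of these differences was not tested. Leaving out 1 library in turn, an alternative added after the data were seen, kept the log2 difference between groups at -2.75 to -2.35 for Rdh16 over Rdh16f2 and -2.43 to -1.69 for Aox3 over Aox1; for Rbp4 over Ttr it was -0.0838 (without library 35) to 0.86, against 0.38 with all 8. No paired analysis was possible because the groups have no library number in common. Depth limits Cyp26a1, which had 3 to 6 counts per DSS library.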
